A study of Danio rerio with 14 samples.

Results

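The genes described here encode guidance cues and their receptors: the ephrins and Eph receptors, the semaphorins with plexins and neuropilins, the slits with robos, and the netrins. They were taken by gene symbol as the deposited tables spell it (lower-case eph, efn, sema, plxn, nrp, slit, robo and ntn symbols). A row in at least 1 of the 3 tables was found for 46 such genes among 14077 genes in all. Of these, 26 were ligand genes (8 ephrins, 15 semaphorins, 1 slit and 2 netrins) and 20 were receptor genes (9 Eph receptors, 7 plexins, 1 neuropilin and 3 robos). The tables hold only genes above a low level (in its higher group each gene reached 0.58 RPM at 0 yr and 1.08 RPM at 1 yr), so a gene low in both groups has no row: 41 of the 46 had a row at 53 mGy/h (0 yr), 40 at 8.7 mGy/h (0 yr) and 32 at 8.7 mGy/h (1 yr), with 27 in every table. For scale, 95 symbols of the RefSeq annotation of another assembly (GRCz12tu) match the same pattern.

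Zebrafish of the AB wild type strain were irradiated with gamma rays while their gametes formed, and messenger RNA was sequenced from their F1 embryos at 5.5 hours after fertilization, the onset of gastrulation. Embryos from the brood bred 1 month after exposure (0 yr) came from parents exposed at 53 mGy/h (3 libraries), from parents exposed at 8.7 mGy/h (3 libraries) and from unexposed parents (2 libraries, 1 further sample having been lost at RNA extraction). A later brood of the parents exposed at 8.7 mGy/h (1 yr, 3 libraries) had unexposed parents of the same date as control (3 libraries). Each library held 100 whole embryos. The labels do not tie libraries to parents or clutches, so adjusted p-values measure only the spread between these samples. The tables give 1 value per group and gene in RPM (reads normalised to the library's total), so no spread between libraries can be printed, and every call of change below is the authors' FDR (an adjusted p) under 0.05. The log2 change is the exposed minus the control value of log2 RPM. This change and the authors' FDR do not share a zero point. At 53 mGy/h sema3e, at a log2 change of 0.17, had an FDR of 0.834 in the authors' deposited table. There sema6d, at -0.16, had one of 0.155. The size of a small called change is therefore uncertain. In whole embryos, fewer cells of a type and less RNA per cell cannot be told apart.

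Guidance cues steer migrating cells and growing axons. Ephrins and Eph receptors are both held in the cell membrane and signal into both cells at a contact, often by repulsion, which separates cell populations; class A ephrins are anchored by a lipid and class B ephrins span the membrane. Semaphorins are secreted or membrane-bound and act through plexins, with neuropilins as coreceptors for the secreted class, while slits act through robos and netrins through receptors outside the list such as Dcc and neogenin. In the zebrafish gastrula, Eph and ephrin proteins take part in cell sorting and in the movements that shape the body axis.

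At 53 mGy/h (0 yr) the ephrin genes were low and several of the receptor and semaphorin genes were high. Of 41 guidance genes with a row, 8 rose and 8 fell, which is 39.0% called, against 43.6% of all genes in the table (22.1% rose and 21.5% fell). The share called was thus close to that of all genes, and what follows describes which genes moved. Of 6 ephrin genes 4 fell and none rose, and all 6 values were below control. These were low genes, with a median mean level of 1.93 RPM. The fallen efna1a, at 0.36 RPM at 53 mGy/h, had a row only through its control, since each listed gene reached 0.58 RPM in its higher group. Its fall therefore adds little to the count of fallen ephrins. Among the 9 Eph receptor genes 3 rose and 2 fell, and among the 13 semaphorin genes 3 rose and 1 fell. The 8 risen guidance genes were low in control too, with a median of 1.46 RPM, against 14.5 RPM for the 8 fallen ones. Over all genes these control medians were 8.54 RPM for rises and 12.5 RPM for falls.

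The largest fall among ligands was that of an ephrin-A1 copy. The gene efna1b (ENSDARG00000018787, chromosome 16, 23367623 to 23383117 in GRCz10) stood at 1.98 RPM in the 53 mGy/h group, against 13.0 RPM in control, a log2 change of -2.72. Its paralogue efna1a stood at 0.36 RPM at 53 mGy/h, against 1.97 RPM in control (log2 change -2.44). Both copies encode lipid-anchored ligands of EphA receptors. Another class A ligand gene, efna5a, fell to 1.45 RPM at 53 mGy/h, against 2.90 RPM in control, and efnb3b, a membrane-spanning ligand, to 0.72 RPM against 1.53 RPM in control. In the authors' deposited table the FDR was 2.34e-13 for efna1b, 0.00119 for efna1a, 0.00709 for efna5a and 0.0416 for efnb3b. The remaining ephrins did not pass: efna2a was at 1.59 RPM at 53 mGy/h and 2.09 RPM in control, and efnb2a at 1.48 RPM at 53 mGy/h and 2.55 RPM in control.

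Eph receptor genes moved in both directions. The gene epha2a (ENSDARG00000017354, chromosome 6, 45872713 to 45903864 in GRCz10), a receptor for class A ephrins, fell to 4.28 RPM at 53 mGy/h, against 24.1 RPM in control (5.63-fold lower). The opposite was seen for epha4a (ENSDARG00000054454, chromosome 2, 40102182 to 40170399 in GRCz10), whose product binds ephrins of both classes and is known from hindbrain segment boundaries: it rose to 10.4 RPM at 53 mGy/h, against 1.93 RPM in control (5.43-fold higher). The class B receptor gene ephb2b rose to 42.6 RPM at 53 mGy/h, against 18.9 RPM in control, and epha4l to 2.92 RPM against 1.19 RPM in control. A smaller fall was listed for ephb4b, at 17.9 RPM at 53 mGy/h and 25.3 RPM in control. The FDR in the authors' deposited table was 2.1e-31 for epha2a, 5.95e-12 for epha4a, 0.000101 for ephb2b, 0.029 for epha4l and 0.000694 for ephb4b. Not called were ephb4a, the receptor known from vein and artery separation together with ephrin-B2, at 15.0 RPM at 53 mGy/h and 12.8 RPM in control, and epha4b, ephb1 and ephb6, whose log2 changes were 0.78, 0.47 and 0.25.

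**Figure D1:**
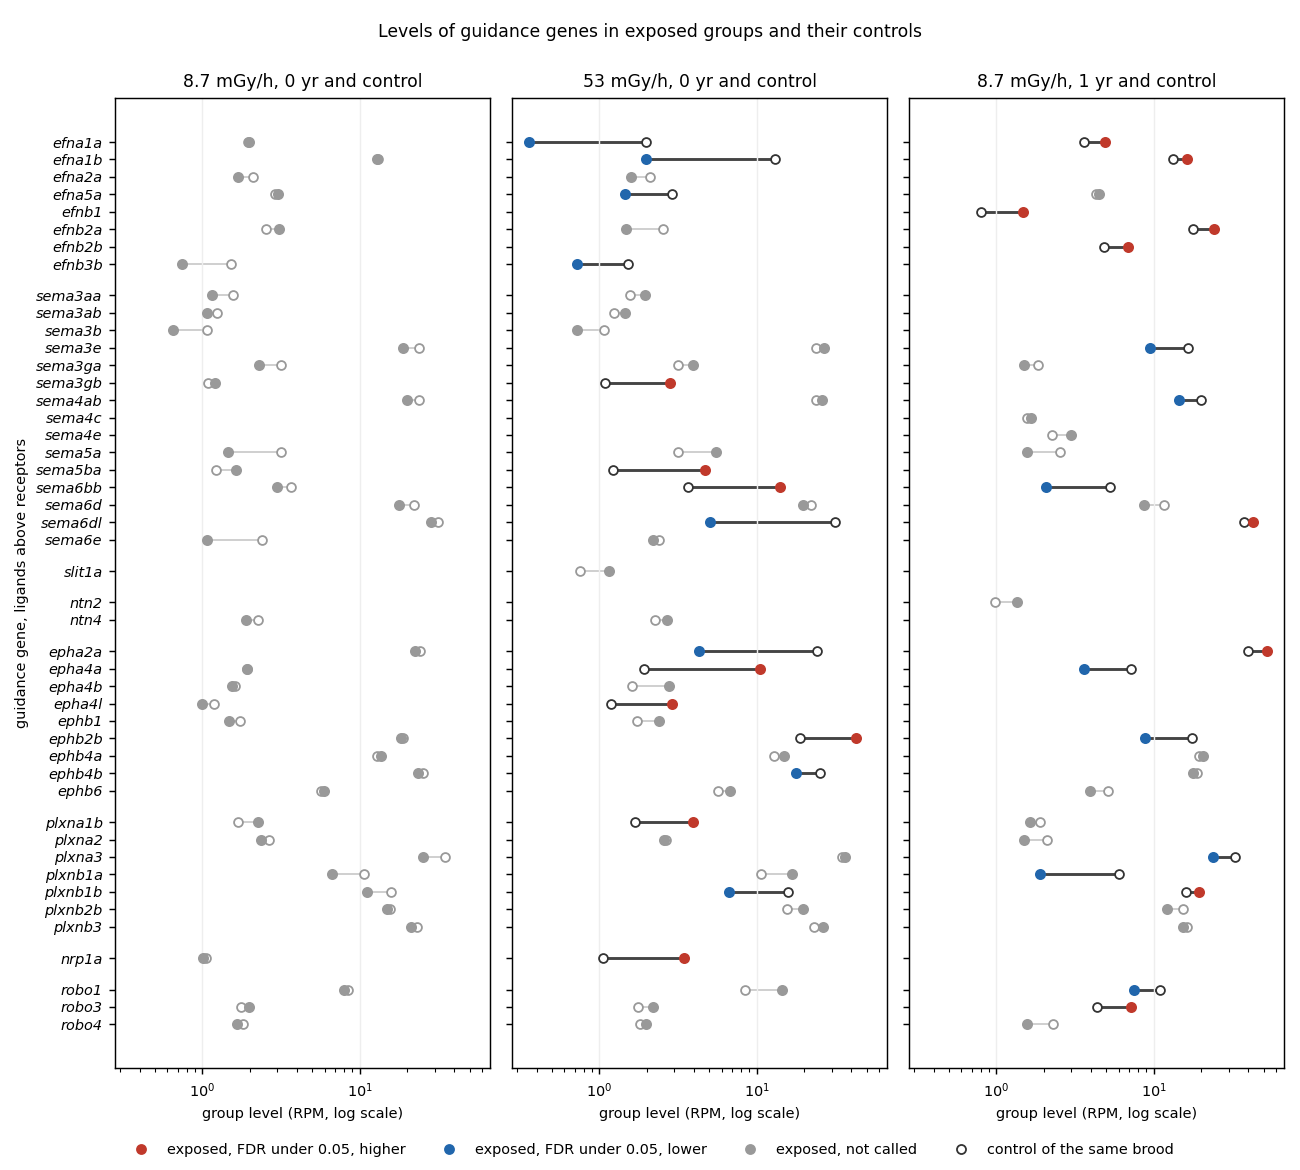
Group levels of the 46 guidance genes in RPM on a log axis, ligands above receptors, for each exposed group (filled) and the control of its brood (open); a gene with no row in a table has no point. At 53 mGy/h the ephrin values lie left of control, by 6.57-fold for efna1b. At 8.7 mGy/h (1 yr) the ephrins with a row, in part other genes, lie to the right by smaller steps.

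Among the semaphorins, transmembrane members moved in opposite directions. The gene sema6dl (ENSDARG00000011533, chromosome 18, 40364806 to 40397670 in GRCz10), a semaphorin-6D-like gene, fell to 5.07 RPM at 53 mGy/h, against 31.6 RPM in control (6.24-fold lower). By contrast sema6bb rose to 14.1 RPM at 53 mGy/h, against 3.67 RPM in control, and sema5ba, which carries thrombospondin repeats beside its sema domain, rose to 4.70 RPM against 1.22 RPM in control. The secreted class 3 gene sema3gb rose to 2.83 RPM at 53 mGy/h, against 1.09 RPM in control. According to the authors' deposited table the FDR was 2.08e-29 for sema6dl, 1.34e-12 for sema6bb, 1.33e-06 for sema5ba and 0.00506 for sema3gb. The uncalled semaphorins of at least 10 RPM lay within 1.12-fold of control. Thus sema3e, the secreted ligand known for steering vessel sprouts, was at 26.7 RPM at 53 mGy/h and 23.7 RPM in control, sema4ab at 25.9 RPM at 53 mGy/h and 23.7 RPM in control, and sema6d at 19.8 RPM at 53 mGy/h and 22.1 RPM in control. The other 6 uncalled semaphorins had log2 changes between -0.58 and 0.79. A reference list of gene names gives SEMA6D for sema6dl and sema6ca for sema6d. The deposited symbols are kept here, so which of these is the 6D gene is uncertain.

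Of the semaphorin receptors, 2 rose, 1 fell and 5 were not called, where 22.1% of all genes rose and 21.5% fell. The plexin gene plxnb1b fell to 6.72 RPM at 53 mGy/h, against 15.9 RPM in control, while the other plexin-B1 copy, plxnb1a, was at 16.8 RPM at 53 mGy/h and 10.6 RPM in control and did not pass. The neuropilin gene nrp1a, which encodes a coreceptor for class 3 semaphorins and for VEGF, rose to 3.45 RPM at 53 mGy/h, against 1.06 RPM in control. A rise was also listed for plxna1b, at 3.94 RPM at 53 mGy/h and 1.70 RPM in control. The authors' deposited table lists an FDR of 6.69e-07 for plxnb1b, 0.000149 for nrp1a, 0.0109 for plxna1b and 0.142 for plxnb1a. The other 4 plexins were within 1.26-fold of control: plxna3 was at 36.2 RPM at 53 mGy/h and 35.1 RPM in control, plxnb3 at 26.5 RPM at 53 mGy/h and 23.2 RPM in control, plxnb2b at 19.7 RPM at 53 mGy/h and 15.6 RPM in control, and plxna2 had a log2 change of -0.02. No slit, robo or netrin gene was called: log2 changes were 0.63 for slit1a, 0.25 for ntn4, 0.31 for robo3 and 0.13 for robo4. The gene robo1, a slit receptor known from axon crossing at the midline, was at 14.4 RPM at 53 mGy/h, against 8.46 RPM in control, with an FDR of 0.0851 in the authors' deposited table.

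Set against each other at 53 mGy/h, ligands and receptors both held rises and falls. Of 21 ligand genes 3 rose and 5 fell, and of 20 receptor genes 5 rose and 3 fell. The median log2 change was 0.13 for ligands and 0.32 for receptors, beside 0.12 for all genes in the table. Relative to that median of all genes, 11 ligands lay above and 10 below, and 15 receptors lay above and 5 below. Within the ligands the ephrins stood apart in their values: their median log2 change was -1.05, with 0 of 6 above the median of all genes, while the other 15 ligand genes had a median of 0.25, with 3 rises and 1 fall. These 6 ephrins include efna1a, which had a row only through its control and so adds little to this contrast. For the Eph receptors, the partners of the ephrins, the median was 0.47. No test of a difference between classes was possible without values per library.

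At 8.7 mGy/h (0 yr) no guidance gene was called. None of the 40 with a row passed, where 0.294% of all genes did (0.151% up and 0.143% down), and the lowest FDR among them in the authors' deposited table was 0.226. The tables give no unadjusted p, and DESeq2 is the only test tool that the submitters' processing notes name. An FDR that misses the threshold does not show that a gene was alike in both groups. The largest differences were lower values in 3 ligand genes. These were sema6e at 1.07 RPM at 8.7 mGy/h and 2.39 RPM in control, sema5a at 1.47 RPM at 8.7 mGy/h and 3.17 RPM in control, and efnb3b at 0.74 RPM at 8.7 mGy/h and 1.53 RPM in control. Of the genes called at 53 mGy/h, several with large changes there lay near control in this group. For example efna1b was at 12.8 RPM at 8.7 mGy/h and 13.0 RPM in control, epha2a at 22.5 RPM at 8.7 mGy/h and 24.1 RPM in control, epha4a at 1.92 RPM at 8.7 mGy/h and 1.93 RPM in control, and sema6dl at 28.2 RPM at 8.7 mGy/h and 31.6 RPM in control. Others lay further from control: efnb3b was about as low as at 53 mGy/h (0.72 RPM there), and plxnb1b was at 11.1 RPM, against 15.9 RPM in control. The median log2 change was -0.28 for 20 ligands and -0.09 for 20 receptors, beside -0.04 for all genes. Of the ligands, 11 of 13 semaphorins lay below the median of all genes, with a median of -0.32. The 6 ephrins had a median of -0.003. Lying below was not particular to semaphorins or ligands. It was also seen in 6 of 7 plexins, and in 14 of the 20 ligands and 14 of the 20 receptors. Both 0 yr comparisons use the same control libraries, whose values were identical in the 2 tables, so their values are not independent, and the 53 and 8.7 mGy/h groups were not tested against each other in any table.

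**Figure D2:**
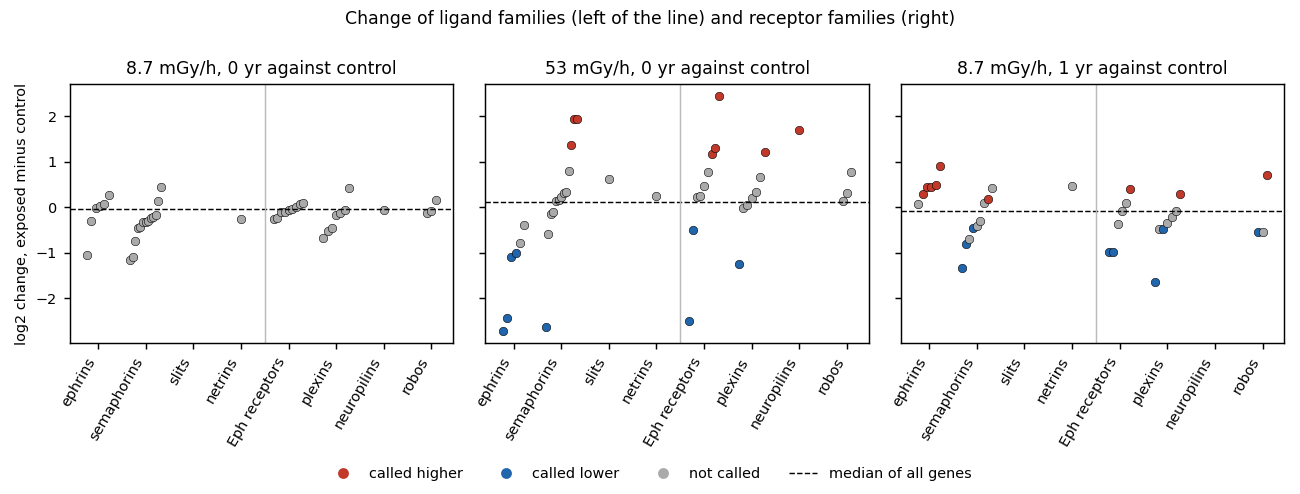
Log2 change (exposed minus control) of each guidance gene with a row, by family, with ligand families left and receptor families right of the grey line; the dashed line is the median of all genes, at -0.04, 0.12 and -0.09 in the 3 panels. Ephrin points lie below the dashed line at 53 mGy/h and above it at 8.7 mGy/h (1 yr), and semaphorins and Eph receptors lie on both sides in those panels. The ephrins of those panels are in part different genes. No row at 1 yr exists for efna2a and efnb3b, and none at 0 yr for efnb1 and efnb2b.

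At 8.7 mGy/h (1 yr) the ephrin genes were higher than in the control of that brood, by less than 2-fold. Of 32 guidance genes with a row, 9 rose and 8 fell, which is 53.1% called, beside 42.4% of all genes in that table (20.0% rose and 22.4% fell). No rise reached 2-fold, and 2 of the falls did. Such large changes were few over all genes too, where 1.04% rose and 4.78% fell by at least 2-fold. Of 6 ephrin genes 5 rose and none fell, and 3 of the 5 were class B ligands. One of these, efnb1, had a control value of 0.80 RPM, under the 1.08 RPM reached by every listed gene in its higher group. It therefore had a row only through the exposed group, so its rise adds little to this count. The 6 ephrins had a median log2 change of 0.44, beside -0.09 for all genes. They were in part other genes than the 6 at 53 mGy/h. Without a row at 1 yr were efna2a and efnb3b, and without a row at 0 yr efnb1 and efnb2b.

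The ephrin-B2 copies were among the risers. The gene efnb2a, known from the borders between forming somites and from arteries, rose to 24.1 RPM at 8.7 mGy/h (1 yr), against 17.9 RPM in control, and efnb2b to 6.86 RPM against 4.86 RPM in control. The ephrin-A1 copies followed, with efna1b at 16.2 RPM at 8.7 mGy/h and 13.2 RPM in control, and efna1a at 4.89 RPM at 8.7 mGy/h and 3.60 RPM in control. The gene efnb1 stood at 1.49 RPM at 8.7 mGy/h and 0.80 RPM in control. Rises of these ephrins were thus between 1.22-fold (efna1b) and 1.86-fold (efnb1, which had a row only through the exposed group). The authors' deposited table for 1 yr has an FDR of 4.47e-05 for efnb2a, 0.00276 for efnb2b, 0.00858 for efna1b, 0.0321 for efna1a and 0.0314 for efnb1. The uncalled ephrin was efna5a, at 4.49 RPM at 8.7 mGy/h and 4.31 RPM in control.

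Eph receptors again moved in both directions. The gene epha2a rose to 52.8 RPM at 8.7 mGy/h (1 yr), against 40.0 RPM in control. In contrast epha4a fell to 3.59 RPM at 8.7 mGy/h, against 7.15 RPM in control, and ephb2b to 8.83 RPM against 17.5 RPM in control, each 1.99-fold lower. The EphB4 genes, whose product binds ephrin-B2, were near control, with ephb4a at 20.7 RPM at 8.7 mGy/h and 19.3 RPM in control and ephb4b at 17.8 RPM at 8.7 mGy/h and 18.8 RPM in control, and neither was called. For the 3 called receptors the authors' deposited table gives FDR values of 9.58e-07 (epha2a), 6.15e-05 (epha4a) and 3.51e-08 (ephb2b).

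Of the 9 semaphorin genes with a row at 1 yr, 3 fell and 1 rose, where 22.4% of all genes fell and 20.0% rose. The secreted ligand gene sema3e fell to 9.50 RPM at 8.7 mGy/h (1 yr), against 16.6 RPM in control, sema4ab to 14.5 RPM against 19.9 RPM in control, and sema6bb to 2.08 RPM against 5.25 RPM in control (2.53-fold lower). The single rise was in sema6dl, to 42.5 RPM at 8.7 mGy/h, against 37.8 RPM in control, a 1.13-fold difference. The uncalled sema6d was at 8.72 RPM at 8.7 mGy/h and 11.6 RPM in control. In the authors' deposited table the FDR was 4.69e-07 for sema3e, 0.00912 for sema4ab, 1.4e-06 for sema6bb and 0.0202 for sema6dl. Among the plexins the plexin-B1 copies were called in opposite directions: plxnb1a fell to 1.91 RPM at 8.7 mGy/h, against 5.99 RPM in control (3.14-fold lower), and plxnb1b rose to 19.5 RPM against 16.0 RPM in control. The gene plxna3, whose product pairs with neuropilins as a receptor for class 3 semaphorins, fell to 23.7 RPM at 8.7 mGy/h, against 32.8 RPM in control. The FDR of the authors' deposited table was 2e-07 for plxnb1a, 0.00817 for plxnb1b and 0.0134 for plxna3. Of the other plexins, plxnb2b was at 12.2 RPM at 8.7 mGy/h and 15.4 RPM in control, and plxnb3 at 15.5 RPM at 8.7 mGy/h and 16.2 RPM in control.

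The slit receptors split as well. The gene robo1 fell to 7.49 RPM at 8.7 mGy/h (1 yr), against 10.96 RPM in control, and robo3, another receptor known from midline crossing, rose to 7.14 RPM against 4.38 RPM in control. In the authors' deposited table their FDR values were 0.00904 and 0.000214 in that order. The endothelial member robo4 was not called, at 1.56 RPM at 8.7 mGy/h and 2.28 RPM in control. The netrin gene ntn2 was at 1.36 RPM at 8.7 mGy/h and 0.98 RPM in control, also uncalled.

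As classes at 1 yr, ligands had a median log2 change of 0.13 with 6 rises and 3 falls of 16, and receptors of -0.35 with 3 rises and 5 falls of 16. All genes had a median of -0.09, and 20.0% of them rose and 22.4% fell. Without the ephrins, the other 10 ligand genes had a median of -0.36, with 1 rise and 3 falls. Receptors other than Eph receptors had a median of -0.40, and Eph receptors of -0.23.

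A direct look at the genes called in both the 53 mGy/h (0 yr) and the 8.7 mGy/h (1 yr) comparison, which have separate controls, showed opposite directions. Of the 27 guidance genes with a row in both tables, 8 were called in both, 3 at 53 mGy/h alone, 7 at 1 yr alone and 9 in neither. Over all genes, 3144 of the 12154 with a row in both tables were called in both. The like shares for calls in 1 comparison alone were not computed, so those counts are description only. The 5 that fell at 53 mGy/h and rose at 1 yr were efna1a, efna1b, epha2a, sema6dl and plxnb1b. Of these, efna1a had a row at 53 mGy/h only through its control. The 3 that rose at 53 mGy/h and fell at 1 yr were epha4a, ephb2b and sema6bb. All 8 thus had opposite signs, and so did 3068 of the 3144 genes called in both over the whole tables (97.6%), so opposite directions are not particular to the guidance genes.

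**Figure D3:**
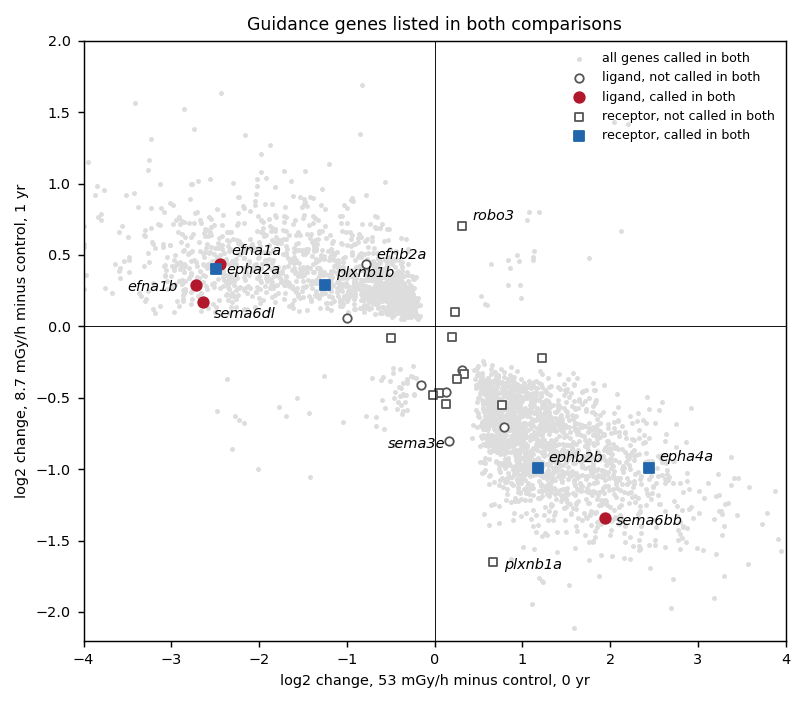
Log2 change of the 27 guidance genes with a row in both tables, at 53 mGy/h (0 yr) on the x axis and at 8.7 mGy/h (1 yr) on the y axis, with all genes called in both in grey (18 of these lie beyond the axes). The 8 filled guidance genes lie in the upper left and lower right quadrants, for example efna1b at -2.72 and 0.29 and sema6bb at 1.94 and -1.34.

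Copies of a duplicated gene did not always move together. The ephrin-A1 copies fell together at 53 mGy/h, where efna1a had a row only through its control, and rose together at 1 yr. For the plexin-B1 pair, plxnb1b fell at 53 mGy/h and rose at 1 yr, while plxnb1a was 1.59-fold higher (uncalled) at 53 mGy/h and fell at 1 yr. In the EphB4 pair, ephb4b fell at 53 mGy/h (1.41-fold) and ephb4a was 1.17-fold higher and uncalled. The EphA4 genes epha4a, epha4l and epha4b lay above control at 53 mGy/h, epha4a by 5.43-fold, epha4l by 2.46-fold and the uncalled epha4b by 1.72-fold. The sema3ga and sema3gb values were 1.24-fold (uncalled) and 2.59-fold higher at 53 mGy/h. How reads shared by such copies were assigned is not given in the sources used here, so a difference within a pair is less certain than that of a gene without a copy.

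**Figure D4:**
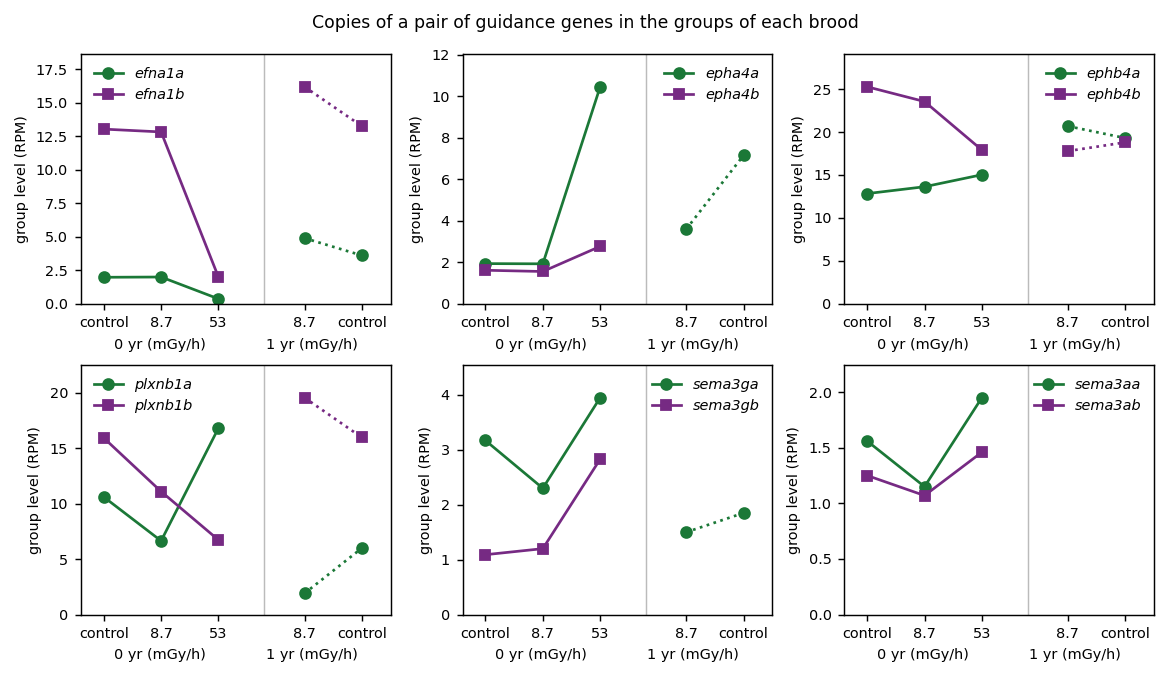
Group levels in RPM of 6 pairs of gene copies, with the 0 yr groups left (control, 8.7 and 53 mGy/h, solid lines) and the 1 yr groups right (8.7 mGy/h and control, dotted lines) in each panel; a copy with no row at 1 yr has no point there. At 53 mGy/h plxnb1a lies above and plxnb1b below its own 0 yr control, whereas efna1a and efna1b both lie below theirs.

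Some of these genes overlap another gene in the files' GRCz10 coordinates, and the libraries do not mark strand. The whole of plxna1b, a span of 2.71 kb on chromosome 6 from 785746 to 788459, lies within ntan1 on the same strand, and the whole of ephb4b (chromosome 23, 44543911 to 44595920) lies within DLG4. At 53 mGy/h ntan1 was at 1.27 RPM, against 1.30 RPM in control, and DLG4 at 7.58 RPM, against 3.08 RPM in control, both uncalled. At 1 yr DLG4 rose to 3.97 RPM at 8.7 mGy/h, against 1.40 RPM in control. Its FDR in the authors' deposited table was 1.42e-07 there. An unnamed gene on the opposite strand overlaps sema6dl by 23233 bases and was at 0.20 RPM at 53 mGy/h, against 1.85 RPM in control. The fallen gene plxnb1b overlaps another unnamed gene by 758 bases on the same strand, which had a row at 1 yr, at 1.26 RPM at 8.7 mGy/h and 1.03 RPM in control, uncalled. The part of shared reads in the calls of these genes was not tested. Without the members that overlap a listed gene, ephb4b, sema6dl and plxnb1b among them, 5 fallen genes were left at 53 mGy/h.

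Guidance genes are long: their median span in the files was 113 kb, against 17.8 kb for all genes, in the 53 mGy/h table. The 8 risen genes had a median span of 119 kb and the 8 fallen ones of 42.4 kb, and over all genes the medians were 24.1 kb for rises and 11.4 kb for falls. At 1 yr the order was reversed: rises had a median of 31.2 kb and falls of 203 kb among the guidance genes, and 13.4 kb and 27.0 kb over all genes. The part of gene length in the calls was not tested.

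Other genes of the same pathways were taken from lists of receptors, ligands and cytoplasmic effectors. Of 18 other receptors and coreceptors at 53 mGy/h 2 rose and 3 fell, of 4 other ligands 1 rose and 3 fell, and of 79 effectors 18 rose and 12 fell, with median log2 changes of -0.06, -2.26 and 0.10 in that order. Over all genes at 53 mGy/h 43.6% were called (22.1% up and 21.5% down) and the median was 0.12. Among those with a mean of at least 10 RPM, the largest rises were in effectors: ngef, which encodes ephexin, a protein that acts below Eph receptors, was at 40.2 RPM at 53 mGy/h and 5.32 RPM in control. The focal adhesion kinase gene ptk2ab was at 43.9 RPM at 53 mGy/h and 12.5 RPM in control, and mical2b, of the actin-oxidizing Mical family known from fly to act below plexins, at 33.3 RPM at 53 mGy/h and 11.4 RPM in control. Among the falls was flrt3, a membrane ligand of Unc5 receptors, at 3.78 RPM at 53 mGy/h and 24.3 RPM in control. At 8.7 mGy/h (0 yr) none of the 18 receptors, 4 ligands and 78 effectors was called, where 0.294% of all genes were.

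At 1 yr, 3 of 15 other receptors rose and 6 fell, 3 of 4 other ligands rose, and 11 of 77 effectors rose and 19 fell, with median log2 changes of -0.42, 0.35 and -0.18 in that order. Over all genes at 1 yr 42.4% were called (20.0% up and 22.4% down) and the median was -0.09. The neogenin copies, receptors for netrins and for repulsive guidance molecules, fell: neo1a was at 10.6 RPM at 8.7 mGy/h (1 yr) and 18.1 RPM in control, and neo1b at 41.5 RPM at 8.7 mGy/h and 67.0 RPM in control. The Src-family kinase gene fyna fell 2.12-fold, to 10.4 RPM at 8.7 mGy/h, against 22.1 RPM in control. The repulsive guidance molecule gene rgma rose to 15.6 RPM at 8.7 mGy/h, against 12.2 RPM in control, and tiam1a, a Rac exchange factor, to 16.4 RPM against 11.7 RPM in control.

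Markers of stage were read in the same groups. Of 18 gastrula markers with a row, 17 fell and 1 rose at 53 mGy/h, where 21.5% of all genes fell and 22.1% rose. Their summed level there was 411 RPM, against 1785 RPM in control. Their median log2 change was -2.26, beside 0.12 for all genes. Of these markers, szl was at 0.08 RPM at 53 mGy/h, against 6.24 RPM in control, and eve1 at 0.11 RPM against 2.69 RPM in control. Both had a row only through their control, so their falls add little to the count. At 1 yr 15 of 20 gastrula markers rose and none fell, where 20.0% of all genes rose and 22.4% fell. The sums were 3659 RPM at 8.7 mGy/h and 2997 RPM in control, and the median was 0.33, beside -0.09 for all genes. Of 13 maternal markers 3 rose and 1 fell at 53 mGy/h (sums of 3716 RPM at 53 mGy/h and 2925 RPM in control), with a median log2 change of 0.12, beside 0.12 for all genes. The rises were in ccna1, buc and sox19b, and 9 of the 13 were not called. The fall was in pou5f3, at 579 RPM at 53 mGy/h and 944 RPM in control. In the same maternal list 2 rose and 6 fell at 1 yr (sums of 2172 RPM at 8.7 mGy/h and 2397 RPM in control), with a median of -0.40, beside -0.09 for all genes. The 1 yr rises were in ddx4 and pou5f3, and the falls in buc, sox19b, ccna1, nanog, cldnd and zar1. No marker of either list was called at 8.7 mGy/h (0 yr), where 0.294% of all genes were. Markers of later neural tissue had a row in 4 of 18 cases at 53 mGy/h, between 0.54 and 24.8 RPM there, and none was called; of later blood and vessel markers 2 of 14 had one, of which spi1b rose (1.87 RPM at 53 mGy/h and 0.77 RPM in control). At 1 yr 2 of the 18 neural markers had a row, neither called, and 0 of the 14 blood and vessel markers. The part of stage or cell makeup in the guidance gene results was not tested.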

How the data were processed

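Poly(A)-selected, non-directional libraries from 14 pools of embryos in 5 groups were sequenced, per the labels' protocols. The submitters' processing notes list STAR 2.5.2b, Trim Galore 0.4.2, FastQC 0.11.5, the tool DESeq2 and the build GRCz10 but give no roles. The authors deposited 3 tables with 1 value per group and gene as log2 RPM and as RPM, per the file headers. The authors also deposited a ratio (exposed over control), a signed version of that fold as a score, and an adjusted p-value headed FDR, whose test is not named in the tables. The 0 yr or 1 yr brood of a table comes from the table's name, and its other column labels from the file headers.

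Members were matched by symbol across all genes, and calls are the authors' deposited FDR under 0.05 over the whole table. No unadjusted p or library value was available, so the planned fallback, the deposited FDR, was used in place of a count test, and leaving out a replicate could not be done. Counts, medians and log2 changes were computed with Python 3.11.15, numpy 2.4.6 and pandas 2.3.3, and figures with matplotlib 3.10.9; the call and depth code was tested on simulated data. Depth was recovered from pooled low values, which are means of the log2 of whole reads: 100% of 150 low values (the lowest from 0.4 RPM up) gave whole products (tolerance 0.04) at a geometric mean depth of at least 22.6 to 27.7 megareads, by group. A group value of 1 RPM is then a geometric mean of at least 22.6 to 27.7 reads over its libraries. A single library can hold fewer reads, and the spread between libraries is unknown. The rule gave values for called members with a mean of at least 2 RPM and uncalled ones of at least 10 RPM; members under these levels whose values are printed (such as efnb3b, efnb1, sema3gb, efna2a and sema6e) were chosen after their values were seen. Of the other pathway lists, the 3 largest called changes in each direction with a mean of at least 10 RPM were named, except for some effectors that are not reported here. Members, lists and thresholds were chosen with earlier results of these data known. Alternatives were other FDR thresholds, level filters, a minimum fold, log2(RPM + 1), centring on all genes, and, chosen after seeing the data, capital-letter symbols and leaving out overlapping genes.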

Additional observations from a re-analysis of the deposited data

How the results depend on the processing

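No paired analysis was possible because the tables hold no values per library, and for the same reason no replicate was left out in turn. Counts of called guidance genes stayed within 1.5 times under most alternatives. With a mean level of at least 5 RPM the 53 mGy/h (0 yr) counts were 3 rises and 5 falls of 18 genes. Over all genes of that level 25.8% rose and 19.3% fell. Without members overlapping another gene 5 of 36 fell at 53 mGy/h, beside 21.5% of all genes. Fewer genes enter under both settings. With a minimum of 2-fold the 8.7 mGy/h (1 yr) counts were 0 rises and 2 falls, beside 1.04% and 4.78% of all genes. At 8.7 mGy/h (0 yr) every alternative gave 0. On the log2(RPM + 1) scale, which understates changes of low genes, the median changes of ligands and receptors were 0.12 and 0.26 at 53 mGy/h, -0.215 and -0.076 at 8.7 mGy/h (0 yr) and 0.11 and -0.31 at 8.7 mGy/h (1 yr). Relative to the median of all genes they were 0.011 and 0.21 at 53 mGy/h, -0.24 and -0.047 at 8.7 mGy/h (0 yr), and 0.22 and -0.26 at 8.7 mGy/h (1 yr). Without overlapping members, an alternative chosen after seeing the data, they were 0.17 and 0.34 at 53 mGy/h, -0.081 for receptors at 8.7 mGy/h (0 yr), and 0.078 and -0.47 at 8.7 mGy/h (1 yr). With a mean level of at least 1 RPM only the ligands at 8.7 mGy/h (0 yr) moved, to -0.26. The log2(RPM + 1) scale keeps the sign of every difference, so only centring could change one. Under centring no called guidance gene among the 56 named values changed sign. There 5 uncalled values near 0 did (plxna3 at 53 mGy/h, efna1b and ephb2b at 8.7 mGy/h, 0 yr, and ephb4b and plxnb3 at 1 yr). At an FDR under 0.01 in the authors' deposited table, 6 rose and 7 fell both at 53 mGy/h and at 1 yr. Over all genes 17.9% rose and 17.2% fell at 53 mGy/h at that threshold, and 14.1% rose and 16.7% fell at 1 yr.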

Other observations

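The control embryos of the 2 broods differed in some guidance genes. No deposited comparison sets the broods against each other, and this was not tested. The ephrin-B2 gene efnb2a was at 17.9 RPM in the 1 yr control and 2.55 RPM in the 0 yr control, epha4a at 7.15 RPM in the 1 yr control and 1.93 RPM in the 0 yr control, and robo3 at 4.38 RPM in the 1 yr control and 1.77 RPM in the 0 yr control. These 3 of 27 genes were at least 2-fold higher in the later control and 0 were at least 2-fold lower, beside 366 and 652 of 12154 genes in all. The other ephrin-B2 copy, efnb2b, was at 4.86 RPM in the 1 yr control and had no row in the 0 yr tables. The median log2 difference of the controls (1 yr minus 0 yr) was 0.00 for guidance genes and -0.20 for all genes. Stage markers differed between these controls as well, in both directions but not evenly. Most gastrula markers with a row in both broods were higher in the 1 yr control, and most maternal markers were lower. Thus ta was at 211 RPM in the 1 yr control and 44.4 RPM in the 0 yr control. Maternal nanog was at 442 RPM in the 1 yr control and 1138 RPM in the 0 yr control. Going against their lists, mxtx2 was at 8.58 RPM in the 1 yr control and 46.75 RPM in the 0 yr control. Likewise pou5f3 was at 1173 RPM in the 1 yr control and 944 RPM in the 0 yr control. The part of stage in these differences was not tested.

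In all, 6 symbols written in capitals belong to the same families and are outside the rule; those named here were chosen after their values were seen. At 53 mGy/h SEMA4B (2 of 2) was at 26.3 RPM, against 89.0 RPM in control, and EPHA2 (2 of 2) at 4.11 RPM, against 10.6 RPM in control, and both passed the FDR of the authors' deposited table (2.91e-27 and 6.53e-08). At 8.7 mGy/h (1 yr) neither of these passed, with SEMA4B (2 of 2) at 86.9 RPM and 82.8 RPM in control, and EPHA2 (2 of 2) at 8.76 RPM and 7.23 RPM in control. In that brood ROBO3 (2 of 2) fell to 0.58 RPM at 8.7 mGy/h, against 1.40 RPM in control. It had a row only through its control, since each gene listed at 1 yr reached 1.08 RPM in its higher group. Its fall therefore adds little to a contrast with the lower-case robo3, which rose. PLXNB2 (3 of 5) rose to 2.06 RPM at 8.7 mGy/h, against 1.21 RPM in control. In the authors' deposited table the FDR was 0.0217 for ROBO3 (2 of 2) and 0.0354 for PLXNB2 (3 of 5).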
